A study of Mus musculus with 5 samples.

Results

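MHC class II-high enterocytes are epithelial cells of the mouse ileum that carried transcripts of the antigen-presenting genes H2-Aa, H2-Ab1, H2-Eb1 and Cd74 at 0.2% or more of their unique molecular identifiers (UMIs, counted RNA molecules), with all 4 genes detected. A member also had at least 1 UMI of Fabp2 or Anpep, no UMI of the B cell gene Cd79a or the leukocyte gene Ptprc, and fewer than 3 detected genes out of 7 T cell genes. By this rule there were 264 members among 18955 cells that passed the filters (500 or more genes found, mitochondrial UMIs not above 20%). The remaining 18069 cells that met the enterocyte and immune parts of the rule are called other cells below. Members were thus chosen by the measured levels of 15 genes, and those levels are described without a test.

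All cells came from the distal small intestine of C57BL/6 mice aged 8 to 12 weeks. In the resection group a length of small bowel had been removed, and in the sham group the operation was mimicked. There were 3 sham libraries and 2 resection libraries of droplet single-cell RNA sequencing. The labels give no genetic modification and do not say whether each library came from 1 mouse or from a pool, so p-values measure only the spread between these libraries, which may be technical.

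MHC class II molecules present peptides from the endosomal system to CD4+ T cells. The alpha chain (H2-Aa) and beta chains (H2-Ab1, H2-Eb1) assemble with the invariant chain Cd74, which is cut by lysosomal proteases, and the H2-DM complex then exchanges its remnant for an antigenic peptide. Enterocytes of the small intestine are known to carry these molecules, and transcription of the genes is driven by the coactivator Ciita at a shared promoter module, with interferon gamma as the classic inducer.

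The stretches just before the start sites of 2 rule genes are shown because they hold short motifs of the shared promoter module: H2-Aa holds 1 of the motifs searched, and H2-Eb1 holds both, as does H2-DMb1, a gene outside the rule that was higher in members. They are 110 bases long, are written 5′ to 3′ on the strand of the gene, and come from RefSeq (GRCm38.p6). Capitals mark TGATTGG, the Y motif, and GATGATGCT, an X motif as H2-Eb1 holds it. Both motifs were chosen after these sequences were read. The X letters are those of H2-Eb1, so its match was fixed by the choice. Their absence from the H2-Aa stretch does not show that it lacks an X motif of other letters.
H2-Aa, chr17:34287824-34287933, minus strand: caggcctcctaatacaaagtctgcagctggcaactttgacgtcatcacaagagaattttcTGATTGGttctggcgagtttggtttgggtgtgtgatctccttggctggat
H2-Eb1, chr17:34305757-34305866, plus strand: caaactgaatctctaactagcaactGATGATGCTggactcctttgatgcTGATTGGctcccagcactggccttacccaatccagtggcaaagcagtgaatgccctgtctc

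On both strands of 32851 such windows, the Y letters were in 4.95%, the X letters in 0.0791%, and both in 3 windows (0.00913%): those of H2-Eb1, H2-DMb1 and Nrn1l. The H2-DMb1 window (chr17:34153081-34153190) lies before the RefSeq start but inside the gene as GENCODE places it, in an exon annotated as untranslated, and it is not printed. Of 23 listed MHC class II genes, 15 had a promoter entry. The 2 H2-DMa windows, also inside the GENCODE gene, held neither string, which says only that these letters were not there. H2-Aa (chr17:34282744-34287823), H2-Ab1 (chr17:34257689-34269419), H2-Eb1 (chr17:34305867-34316674), H2-DMa (chr17:34119541-34139101) and H2-DMb1 (chr17:34153072-34160230) lie together on the GRCm38 assembly.

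The 5 libraries held between 1402 and 7233 deposited cells and between 11749028 and 41281731 UMIs, with medians of 4541 to 6239.5 UMIs per cell. Sham 1 and resection 1 stood apart by a higher mitochondrial share, with medians of 13.3% and 11.6% in other cells against 7.24% to 9.15% in the other libraries. Sham 3 stood apart by its low MHC class II level, 0.00686% of all UMIs against 0.0192% to 0.0481% elsewhere, and by Ccl20, a chemokine gene that reached 3923 counts per 1000000 UMIs (CPM) in its 8 members against at most 185 CPM in the other libraries' members. Pairs of libraries shared between 6 and 47 cell barcodes. There were 6 member barcodes that also occurred in another library, and none was a member in both.

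Members were most frequent in 2 of the sham libraries. They made up 3.12% of the cells of sham 1 that met the enterocyte and immune parts of the rule (38 of 1219, exact 95% binomial interval 2.22 to 4.25%) and 3.04% of those of sham 2 (114 of 3755, 2.51 to 3.64%). Sham 3 had 0.286% (8 of 2797, 0.124 to 0.563%). Resection 1 had 1.10% (41 of 3743, 0.787 to 1.48%) and resection 2 had 0.924% (63 of 6819, 0.711 to 1.18%). The resection libraries therefore lay inside the sham range: below sham 1 and sham 2, and above sham 3. These intervals cover counting error only.

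**Figure D1:**
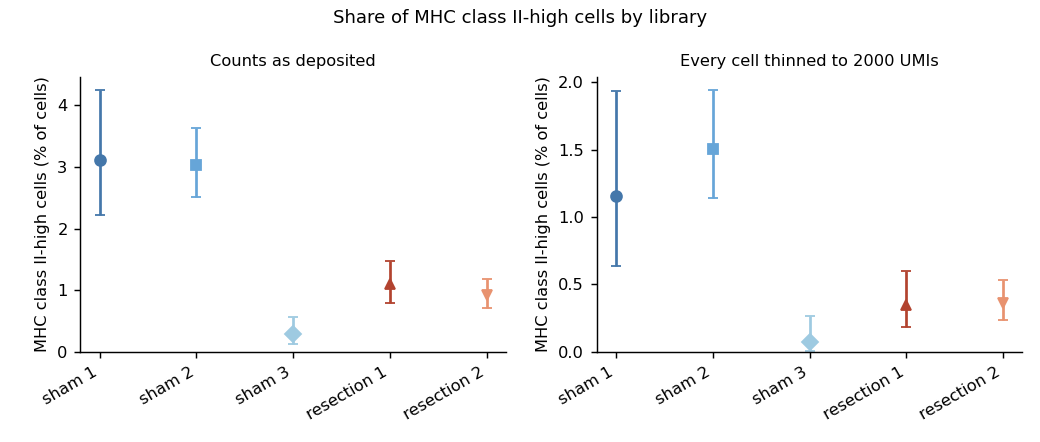
Members as a percentage of the cells that met the enterocyte and immune parts of the rule, one point per library with its exact 95% binomial interval, on the deposited counts (left) and after every cell was thinned to 2000 UMIs (right). Sham 1 and sham 2 stand above both resection libraries and sham 3 stands below them in both panels.

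The resection share minus the sham share was -1.14 percentage points (sham 2.15% ± 1.61, SD, n = 3; resection 1.01% ± 0.121, n = 2; two-sided exact permutation p = 0.4, where the smallest possible p is 0.1). Without sham 3 the difference was -2.07 percentage points, with both sham libraries above both resection libraries (sham 3.08% ± 0.0575, n = 2; exact p = 0.333 over 6 splits). Between the libraries of high mitochondrial share it was -2.02 percentage points and among the other 3 libraries -0.737. Thinned to 2000 UMIs per cell, the shares were 1.16%, 1.501% and 0.0734% in sham 1 to 3, and 0.351% and 0.362% in resection 1 and 2. The plot of shares by library shows that sham 3 alone set the overlap in these 2 settings. At a mitochondrial limit of 10%, sham 1 kept 2 members. Its share (0.820%) was then also below resection 1 (1.01%) and resection 2 (1.24%).

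Within the members the MHC class II share ran from 0.201% to 1.30% of a cell's UMIs, with a median of 0.325%, carried by 6 to 52 UMIs. Many sat close to the threshold: 101 of the 264 were below 0.3%, and 3 reached 1%. The member just inside had 14 of 6980 UMIs (0.201%) and the cell just outside had 12 of 6024 (0.199%). With all 4 genes detected, 75 cells lay between 0.15 and 0.2%, and 59 between 0.2 and 0.25%. A further 359 other cells reached 0.2% without all 4 genes, and 264 of these had 3. The rule thus took the upper end of a continuous distribution.

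Cd74, the invariant chain, gave the largest part of these UMIs in every library, between 44.3% and 60.4% of the sum. In the members its level was 1337, 2193, 2553, 1764 and 1978 CPM in sham 1, sham 2, sham 3, resection 1 and resection 2, and in the other cells of the same libraries 198, 240, 34.9, 87.9 and 170 CPM. The alpha chain gene H2-Aa stood at 415, 551, 302, 406 and 444 CPM in the members of the same libraries, and at 32.9, 22.7, 2.12, 9.16 and 15.2 CPM in other cells. H2-Ab1 ran from 673 to 859 CPM and H2-Eb1 from 364 to 511 CPM in the members. The other cells of sham 3 had the lowest level of Cd74 and of H2-Aa, while its 8 members had the highest Cd74 of the 5 libraries.

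The members carried the profile of enterocytes. At least 6 of 8 enterocyte markers were detected in 250 of the 264 members (94.7%, against 78.7% of other cells), and all 8 in 155. Their summed level of the 8 markers was 23078 to 40563 CPM over libraries, against 7199 to 24407 CPM in other cells, and was higher in the members of 5 of 5 libraries. The requirement of Fabp2 or Anpep removed no cell that had passed the MHC class II part, so the label rests on these markers and not on that requirement.

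Markers of professional antigen-presenting cells were at or near 0. Of the 13 B cell markers in the gene table, 12 had no UMI in any member, which allows up to 2.37 CPM for each, and the other had 2 UMIs in 1 cell. Of 27 myeloid and dendritic markers 17 had no UMI, and the summed list was 0 to 36.3 CPM in members against 19.0 to 62.1 CPM in other cells. The T cell list had 82 UMIs, 57 of them from Ccl5, with 8 of its 17 genes at 0 and a level of 0 to 88.9 CPM against 17.8 to 89.3 CPM. Plasma cell markers were not near 0 as a sum, at 138 to 269 CPM against 150 to 231 CPM in other cells. In members all of these UMIs came from Xbp1 (126), Sdc1 (97) and Prdm1 (15), and 5 of 8 genes had none. Stromal and endothelial markers had 6 UMIs, with 12 of 15 genes at 0. A doublet caller marked 1 member, 0.379% of them, against 3.79% of other cells.

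MHC class II transcripts were also found in droplets of cell types other than enterocytes, where free RNA can add to the counts. In cells with at least 20% of their UMIs from Paneth cell genes, the 4 genes made up 0.000425% to 0.0104% of UMIs over libraries, in goblet-type cells 0.00651% to 0.0511%, and in cells with at least 3 T cell genes 0.00885% to 0.0401%. In cycling cells, with at least 8 proliferation genes, the 4 genes made up 0.00506% to 0.0545%. In enterocytes with at least 6 of 8 markers that were not members they made up 0.00687% to 0.0609%. These enterocytes had the highest level of the classes in sham 1 and resection 1. Cycling cells had it in sham 2 (0.0545% against 0.0468% in these enterocytes) and resection 2 (0.0314% against 0.0305%), and T cell-type cells in sham 3 (0.00885%). These are averages over a class, whereas the 0.2% of the rule applies to single cells, and sham 3 had the lowest average of each. Single cells did pass the MHC class II part of the rule. They were 0% to 3.33% of goblet-type cells over libraries, 0% to 4.17% of T cell-type cells and 0% to 1.53% of cycling cells, and 0% of Paneth-type cells. The goblet-type and cycling classes were not cleared of members. The median depth of these classes differed, from 4028 UMIs in goblet-type cells of sham 2 to 19714.5 in Paneth-type cells of resection 1.

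The members were slightly shallower than other cells. Median UMIs per member and per other cell were 4450.5 and 5472 in sham 1, 3956.5 and 4618 in sham 2, 5072.5 and 6258 in sham 3, 5451 and 5520 in resection 1, and 4432 and 4632.5 in resection 2. The mean log2 ratio was -0.18 ± 0.13 (SD, n = 5 libraries), lower in 5 of 5 (two-sided exact sign-flip p = 0.063, the smallest that 5 libraries allow). The mitochondrial share differed by 0.0364 percentage points on average, with members higher in 3 of 5 libraries (exact p = 0.938).

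Members were concentrated in cells of high absorptive gene share, the summed share of UMIs from 24 mid-villus absorption genes, which are known to rise from the crypt toward the villus. When the cells of each library were cut into 5 equal bins by this share, bin 1 (lowest) held 14 members, and bins 2 to 5 held 5, 31, 81 and 133. In bin 5 members made up 10.7%, 7.86% and 1.25% of cells in sham 1 to 3, and 1.74% and 2.05% in resection 1 and 2. Resection 1 had its highest share in bin 4 (2.27%), the other 4 libraries in bin 5. The level of the 4 genes over all cells followed the same course, from 0.0137% of UMIs in bin 1 to 0.0554% in bin 5. These are descriptions, because MHC class II levels chose the members.

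**Figure D2:**
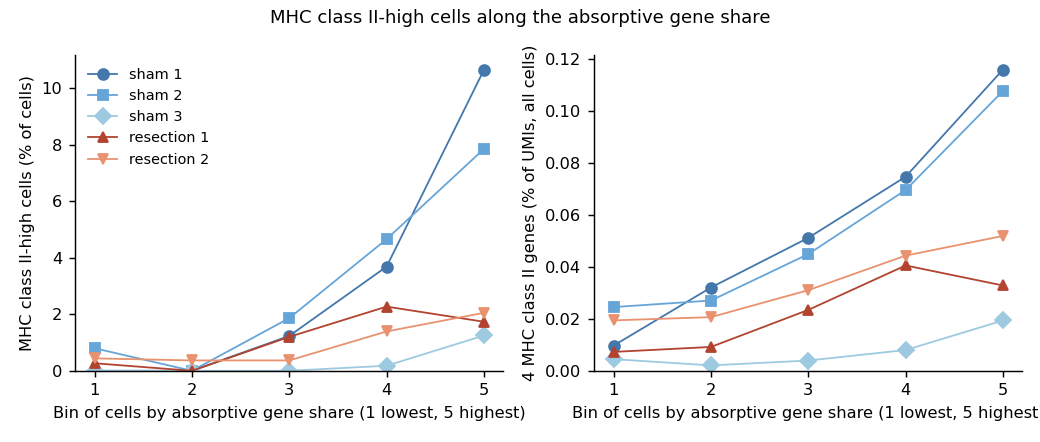
Cells of each library in 5 equal bins of absorptive gene share (x axis, low to high), against the percentage of cells that were members (left) and the share of UMIs from the 4 MHC class II genes over all cells of the bin (right), one line per library. Sham 1 and sham 2 climb to 10.7% and 7.86% in bin 5, resection 1 peaks in bin 4, and sham 3 stays at or below 1.25%.

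A small second group sat at the crypt end. Of 13 stem cell markers, 9 members had 4 or more, and they had 3 to 33 UMIs of Fabp2 against a median of 157 in the remaining members. Resection libraries held 7 of these 9 cells and sham libraries 2. Of all cells with 4 or more stem markers, members were 2 of 200 in resection 1 and 5 of 285 in resection 2. They were 0 of 47 in sham 1, 2 of 100 in sham 2 and 0 of 238 in sham 3, so the resection libraries lay inside the sham range. With 3 or more stem markers there were 10 members, and 8 of these had at least 3 proliferation genes. The label enterocyte does not describe these cells well, and they are called stem-type members here. The share of members fell from 1.73% of cells without a stem marker to 0.332% with 2 and 0.169% with 3, and stood at 1.03% with 4 or more.

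To ask which genes outside the rule differed between members and other cells, UMIs were summed per library and class, and edgeR's quasi-likelihood test was fitted with the library as a block. Sham 3, with 8 members, was left out, which leaves 4 libraries. CPM values from here on are scaled by TMM within each fit, except where cells are divided by MHC class II share. Of 9588 genes tested, 579 (6.04%) were higher and 649 (6.77%) lower in the members at an adjusted p below 0.05. Without sham 2, which held the most members, the counts were 325 and 416. Since other cells include Paneth, goblet and crypt cells, each member was also set against its 5 nearest other cells in expression in the same library, found without the MHC, interferon and immune genes. Against these state-matched cells, a comparison added after the data were seen, 16 of 5891 genes (0.272%) were higher and 16 (0.272%) lower. Most calls were thus lost when cells of like state were compared, in a fit with fewer cells and fewer genes tested. Paneth, goblet, crypt and absorptive genes were not left out of the matching, so their values in this comparison are partly set by it.

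The peptide-exchange genes H2-DMb1 and H2-DMa, which encode the H2-DM complex, were higher in members. They had the largest log2 fold changes of the 16 genes called higher against state-matched cells. That rank is partly set by the design, because MHC, interferon and immune genes were left out of the matching and other genes were not. H2-DMb1 stood at 76.4, 67.4, 44.7 and 41.7 CPM in the members of sham 1, sham 2, resection 1 and resection 2, and at 14.3, 8.91, 4.01 and 4.25 CPM in their other cells. The log2 fold change was 2.96 (SE 0.278, edgeR adjusted p = 5.37e-24). Against state-matched cells it was 2.44 (SE 0.256, edgeR adjusted p = 3.38e-11). Its paralog H2-DMb2 is near-identical and was not tested, so reads of the pair may have been split or lost in counting.

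H2-DMa stood at 49.4, 80.4, 37.2 and 57.7 CPM in the members of the same libraries and at 16.9, 24.3, 7.95 and 16.6 CPM in other cells. The log2 fold change was 1.78 (SE 0.228, edgeR adjusted p = 6.50e-13) and 1.63 against state-matched cells (SE 0.225, edgeR adjusted p = 4.28e-07). At this depth the 2 genes were found in few cells: H2-DMa in 18.4% to 28.9% of members per library, and H2-DMb1 in 14.3% to 39.5%. In cells with no UMI of the 4 genes, H2-DMa was at 8.73 CPM over all libraries. It then stood at 13.3 CPM in cells up to 0.05%, 26.6 up to 0.1%, 39.2 up to 0.2%, and 62.5 CPM in the members. H2-DMb1 went from 1.47 through 4.27, 12.2 and 21.8 to 60.9 CPM over the same bins. Over these bins below the threshold H2-DMa increased within each of the 5 libraries, and H2-DMb1 within 4, while in sham 1 it was 26.4 CPM up to 0.1% and 21.6 CPM up to 0.2%. The pooled values also mix libraries that fill the bins unequally.

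**Figure D3:**
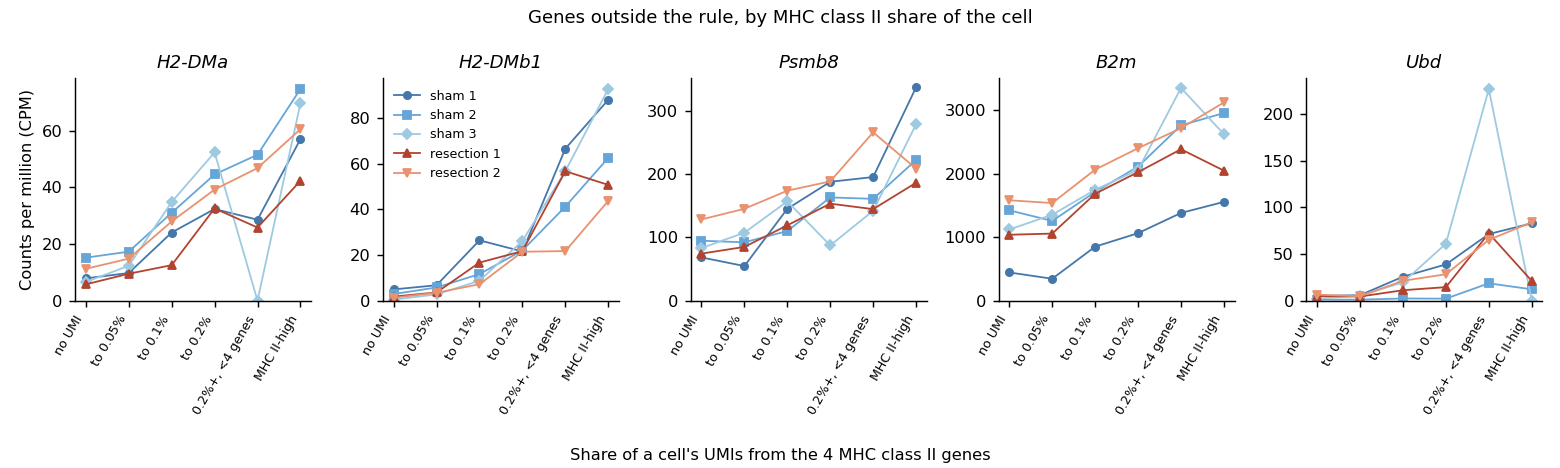
CPM of 5 genes that the rule did not use (y axis, each panel on its own linear scale from 0) in cells ordered by their MHC class II share (x axis, from no UMI to the members, with cells of 0.2% or more that lack one of the 4 genes before them), one line per library. H2-DMb1 climbs over the bins up to 0.2% from 1.47 to 21.8 CPM over all libraries pooled, with a dip in the last of these bins in sham 1, and is 60.9 CPM in the members, while Ubd differs by library and had no UMI in the 8 members of sham 3.

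Few other genes of the MHC class II machinery were called. Of 13 tested genes of that list, 3 were higher and 1 lower, with a median log2 fold change of 0.13 against -0.09 over all genes tested. The third higher gene was Ctss, a protease that cuts the invariant chain, at 121 CPM ± 33.8 (SD, n = 4) in members and 90.8 ± 25.8 in other cells (log2 fold change 0.42, SE 0.144, edgeR adjusted p = 0.0301), and 0.06 against state-matched cells (edgeR adjusted p = 0.943). The lower gene was Ctsh, another lysosomal protease (-0.88, SE 0.304, edgeR adjusted p = 0.0337), which was at -0.02 against state-matched cells (edgeR adjusted p = 0.994). The 3 RFX subunit genes, whose products bind the X box, were not called, with log2 fold changes from -0.16 to 0.45. Ciita had 4 UMIs in all members (3.16 CPM) against 0.248 CPM in cells without any MHC class II UMI, too few for the test. Against state-matched cells 2 of 11 genes of the list were called, both of the H2-DM complex. Of 5 tested costimulation genes, 1 was higher, the butyrophilin-like gene Btnl2 (0.77, SE 0.243, edgeR adjusted p = 0.0169; higher in 3 of 4 libraries), at 0.03 against state-matched cells (edgeR adjusted p = 0.992).

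MHC class I presentation genes were higher in part. Of 24 tested, 8 were higher and none lower, with a median of 0.50. Psmb8, a subunit of the immunoproteasome that makes class I peptides and a neighbour of the class II genes (chr17:34197721-34201454), stood at 292, 239, 164 and 199 CPM in the members of sham 1, sham 2, resection 1 and resection 2 against 104, 115, 79.4 and 146 CPM in other cells. Members were higher in 4 of 4 libraries (log2 fold change 0.999, SE 0.127, edgeR adjusted p = 4.80e-13). B2m, the light chain of class I molecules, stood at 1348, 3179, 1801 and 2976 CPM against 641, 1650, 1069 and 1680 CPM (0.90, SE 0.136, edgeR adjusted p = 2.11e-09). Against state-matched cells both stayed called, Psmb8 at 0.68 (edgeR adjusted p = 7.38e-05) and B2m at 0.38 (edgeR adjusted p = 0.00128). The class I-like genes H2-T23 and H2-Q2 were at 1.01 and 1.02 against other cells, but at 0.51 and 0.33 against state-matched cells (edgeR adjusted p = 0.0674 for each). H2-Q2 belongs to a family of near-identical copies, so its value is uncertain.

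Some interferon-response genes were higher against other cells, and Ubd was the one called in both comparisons. Ubd, an interferon-inducible ubiquitin-like protein, stood at 71.9, 13.0, 18.6 and 80.2 CPM in members against 15.7, 1.92, 5.60 and 9.46 CPM in other cells (log2 fold change 2.55, SE 0.315, edgeR adjusted p = 8.14e-14; 1.504 and edgeR adjusted p = 0.000272 against state-matched cells). Few members held it: 10 of 38 in sham 1, 4 of 114 in sham 2, 3 of 41 in resection 1 and 3 of 63 in resection 2. The level of resection 2 thus rests on 25 UMIs in 3 cells. The members' level of Ubd differed by library, and the 8 members of sham 3 had no UMI, which allows up to 69.6 CPM there. Of 16 tested interferon gamma response genes 4 were higher and none lower, with a median of 0.28. Another 18 genes of this list, all the Gbp genes included, were too low to test. Against state-matched cells 1 of 11 was called, with a median of 0.12.

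Of 25 type I and III interferon response genes 13 were higher and none lower, with a median of 0.91. Among them were Isg15, a ubiquitin-like modifier (1.03, edgeR adjusted p = 1.20e-07; higher in 3 of 4 libraries), Oasl2 (1.14, edgeR adjusted p = 5.82e-06), the transcription factor Irf7 (0.76, edgeR adjusted p = 7.00e-06) and the antiviral gene Rsad2 (1.35, edgeR adjusted p = 0.00185). The GTPase Igtp of the interferon gamma list stood at 15.4 CPM ± 14.5 (SD, n = 4) against 3.74 ± 1.12 (1.87, edgeR adjusted p = 0.00278), with the highest value, 35.9 CPM, in sham 1. The sensor Zbp1 was at 1.04 (edgeR adjusted p = 0.00298; higher in 3 of 4 libraries). Against state-matched cells none of 16 type I and III genes was called, with a median of 0.39 and 15 of 16 above 0. The plot of log2 fold changes shows this shift toward 0 for each of Isg15, Irf7 and Oasl2.

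**Figure D4:**
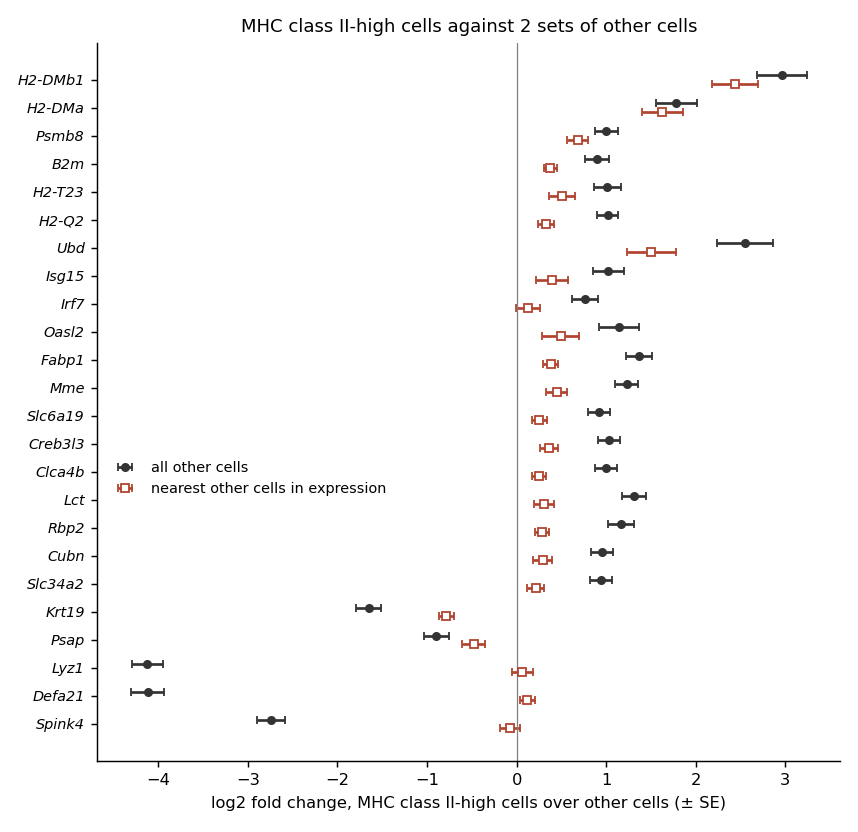
Log2 fold change of members over all other cells (filled circles) and over state-matched other cells (open squares) for 24 genes outside the rule (x axis, bars are ± SE, 4 libraries). H2-DMb1, H2-DMa, Ubd, Psmb8 and B2m stay right of 0 in both, Krt19 and Psap stay left, and Lyz1, Defa21 and Spink4 move from below -2 to near 0. Paneth, goblet and absorptive genes were not left out of the matching, so their moves are partly set by it.

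Most tested genes of the absorptive lists were higher in members than in other cells. Of 24 mid-villus absorption genes, 21 were higher and none lower (median 0.65), and of 17 tested villus tip genes 12 were higher and 1 lower (median 0.77). Examples were Fabp1, a fatty acid carrier (1.36, SE 0.145, edgeR adjusted p = 1.15e-18), Mme, a peptidase of the brush border (1.23, edgeR adjusted p = 4.39e-18), Slc6a19, a neutral amino acid transporter (0.92, edgeR adjusted p = 2.75e-12), Slc34a2, a phosphate transporter (0.94, edgeR adjusted p = 6.33e-13) and the transcription factors Creb3l3 (1.03) and Klf4 (0.91). Ileal genes were higher as well, 13 of 18 with 1 lower (median 0.59), such as Cubn and Amn, which form the receptor for intrinsic factor with cobalamin (0.96 and 0.71). Genes of the proximal intestine were higher in 12 of 20 and lower in 2 (median 0.83), such as the lactase gene Lct (1.31), Pck1 of gluconeogenesis (1.11) and the retinol carrier Rbp2 (1.16). The share of these 24 mid-villus genes was higher in members in every library, for example a median of 3.21% against 1.09% in sham 1 and 5.91% against 4.28% in resection 1, and its part in these lists was not tested.

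Against state-matched cells few of these genes were called: 2 of 24 mid-villus genes (median 0.16) and none of 15 villus tip (0.25) and 18 ileal genes (0.16). Such genes were not left out of the matching, so their smaller values here are partly set by it. Of 16 proximal genes none was higher and 1 was lower, Gsta1 of glutathione conjugation (-0.92, SE 0.191, edgeR adjusted p = 0.00382). The mid-villus pair was Fabp1 (0.38, edgeR adjusted p = 0.0101) and Apoa1, an apolipoprotein (0.30, edgeR adjusted p = 0.00772). Other genes called higher in this comparison were small in size: the trehalase gene Treh (0.53), Adh6a (0.51), Vnn1 (0.38), Cyp4v3 (0.37), Dnase1 (0.37), the phospholipase Plb1 (0.33), the actin gene Acta1 (0.72) and Zfp36 (0.33), which promotes the decay of inflammatory mRNAs. The largest increases among genes of no list, with at least 20 CPM in members and the same direction in every library, were in Slc23a1, an ascorbate transporter (1.73, edgeR adjusted p = 0.000134), Slc30a10, a manganese exporter (1.66, edgeR adjusted p = 8.85e-06), and Gm11127 (1.59). Fabp6, the ileal bile acid carrier, was at -0.06 (edgeR adjusted p = 0.876), and was singled out after its value was seen.

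Krt19, a keratin, was lower in the members in both comparisons, with the lowest p among the genes called lower against state-matched cells. It stood at 660, 1252, 197 and 609 CPM in the members of sham 1, sham 2, resection 1 and resection 2, and at 1951, 2787, 1170 and 1810 CPM in other cells. Members were lower in 4 of 4 libraries (-1.65, SE 0.140, edgeR adjusted p = 2.36e-29), and against state-matched cells the value was -0.78 (SE 0.0850, edgeR adjusted p = 1.06e-10). Krt18 was lower against other cells (-1.27) and at -0.26 against state-matched cells (edgeR adjusted p = 0.567). Psap, the precursor of lysosomal saposins, was lower in both comparisons (-0.90, edgeR adjusted p = 7.33e-09; -0.48, edgeR adjusted p = 0.0456). Its list of 23 lysosome and endosome genes had 3 higher and 4 lower. Lgals2 (-0.44), Gpx1 (-0.48), Tstd1 (-0.63) and Pycard, an inflammasome adaptor (-0.44), were also lower than in state-matched cells. A further 8 lower genes in that comparison encode ribosomal proteins. Of 81 cytosolic ribosomal protein genes, a list taken after these values were seen, 79 were lower against other cells (median -0.88), and 1 of 81 was above 0 against state-matched cells (median -0.22).

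Markers of Paneth and goblet cells were far lower in members than in other cells. All 10 Paneth markers were lower (median -4.01), including the lysozyme gene Lyz1 (-4.12), the lectin Itln1 (-4.07) and the defensin Defa21 (-4.12), and 8 of 9 goblet markers were lower (median -1.48), including Spink4 (-2.74) and Agr2 (-1.96). The largest decreases of all were in Gm15315 (-5.21), the lipase gene Pnliprp2 (-4.95), the lectin gene Reg4 (-4.88), the defensin Defa3 (-4.83) and the pentraxin gene Mptx2 (-4.81). Defensin genes are near-identical copies, so the single values are uncertain. Against state-matched cells none of the Paneth or goblet markers was called, and Lyz1, Itln1 and Defa21 were at 0.07, 0.05 and 0.12. Markers of both cell types were not left out of the matching, so this shift toward 0 is partly set by it. Lower villus defence genes went both ways, with 5 of 22 higher and 5 lower.

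Of 11 tested stem cell genes 3 were higher in members and none lower. The summed stem list was higher in the members of 2 of 5 libraries, both of them resection libraries (342.7 and 309 CPM against 192 and 159 CPM in other cells). Lgr5 rests on 13 UMIs in 6 members and Olfm4 on 8 UMIs in 6. Lgr5, the receptor that marks crypt base stem cells, stood at 0, 2.17, 22.3 and 19.2 CPM in the members of sham 1, sham 2, resection 1 and resection 2, against 3.16, 1.33, 2.10 and 1.97 CPM in other cells (2.42, SE 0.615, edgeR adjusted p = 0.00136; higher in 3 of 4 libraries). Olfm4 was at 0, 2.17, 11.2 and 12.8 CPM in members (2.21, edgeR adjusted p = 0.0355), and Axin2 at 27.0, 13.0, 44.7 and 41.7 CPM (0.79, edgeR adjusted p = 0.0449). The resection members were above the sham members for all 3 genes, an order seen in 13.4% of the 3193 genes tested between the groups. All 3 are in the stem list. Their order is therefore not separate from the 7 of 9 members with 4 or more stem markers that resection libraries held. Proliferation genes had none higher and 1 lower of 20, Cenpa (-1.59, edgeR adjusted p = 0.00618).

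Among dissociation-stress genes 7 of 20 were higher and 2 lower, such as Fosb (0.61) and Junb (0.54). Their summed level was higher in the members of 5 of 5 libraries, 4568 to 7573 CPM against 3907 to 5339 CPM, and its part in the results was not tested. One of 4 tested T cell genes was higher, Cd52, on 13 UMIs in 6 members (1.75, edgeR adjusted p = 0.0265). No tested gene of the plasma cell, myeloid or stromal lists was called, and 1 of 2 enteroendocrine genes was higher. Ccl20 was called (0.94, edgeR adjusted p = 0.000136; 0.99, edgeR adjusted p = 0.0382 against state-matched cells), although members were higher in 2 of 4 libraries: 8.98, 56.5, 3.72 and 176 CPM against 32.5, 10.7, 8.35 and 94.6 CPM in other cells of sham 1, sham 2, resection 1 and resection 2.

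To ask how the members themselves differed after resection, the 2 resection libraries were compared with sham 1 and sham 2. Of 3193 genes tested, 4 (0.125%) were higher and 0 (0%) lower, and 96 had an unadjusted p below 0.05. DESeq2 also called 4 higher and 0 lower, with Apoc3 (adjusted p = 0.00332) in place of Ada (adjusted p = 0.206). The 4 genes called by edgeR belong to lipid, sugar and purine handling of the absorptive villus. Without resection 1, which leaves 1 resection library assumed to vary like the sham pair, no gene was called.

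Apoa4, an apolipoprotein of chylomicrons, stood at 722, 1011, 13028 and 4984 CPM in the members of sham 1, sham 2, resection 1 and resection 2 (3.37, SE 0.586, edgeR adjusted p = 0.0128). Fabp1 stood at 380, 1192, 9048 and 4767 CPM (3.12, SE 0.604, edgeR adjusted p = 0.0205). Slc2a2, the basolateral glucose and fructose transporter, stood at 10.7, 13.9, 189 and 95.1 CPM (3.42, SE 0.646, edgeR adjusted p = 0.0205). Both resection libraries were above both sham libraries for these 3 genes, with resection 1 the higher.

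Ada, which deaminates adenosine, stood at 16.0, 4.65, 105 and 83.7 CPM (3.41, SE 0.719, edgeR adjusted p = 0.0496). The groups again did not overlap, as for 13.4% of all tested genes with resection above sham and 12.6% with resection below. Lack of overlap was a condition for the 5 genes named each way, Apoa4, Fabp1, Slc2a2 and Ada included. Leaving out resection 1 gave edgeR adjusted p-values of 1 for Apoa4, 1 for Fabp1, 0.587 for Slc2a2 and 0.716 for Ada. Fabp1 was also not called without sham 1 (0.397), and Ada not without sham 2 (0.459) or resection 2 (0.323). With the library set (high or low mitochondrial share) as a term, Apoa4, Slc2a2 and Ada stayed called (edgeR adjusted p = 0.0342, 0.0396 and 0.0465), while Fabp1 was at 0.0504.

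The next genes by p were not called. Apoc3, another apolipoprotein, was at 331, 620, 2521 and 2560 CPM (2.41, edgeR adjusted p = 0.0706). Car4, a carbonic anhydrase, was at 149.7, 155.7, 21.96 and 26.6 CPM (-2.63, edgeR adjusted p = 0.0613), and Gstp1 at 69.5, 93.0, 4.39 and 11.4 CPM (-3.28, edgeR adjusted p = 0.0706). Cyp3a11 was at 10.7, 4.65, 57.1 and 79.9 CPM (3.28, edgeR adjusted p = 0.170). The groups did not overlap for any of these, as the naming required for Apoc3, Car4 and Gstp1. With the library set as a term Car4 and Apoc3 were called (edgeR adjusted p = 0.0396 and 0.0224).

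**Figure D5:**
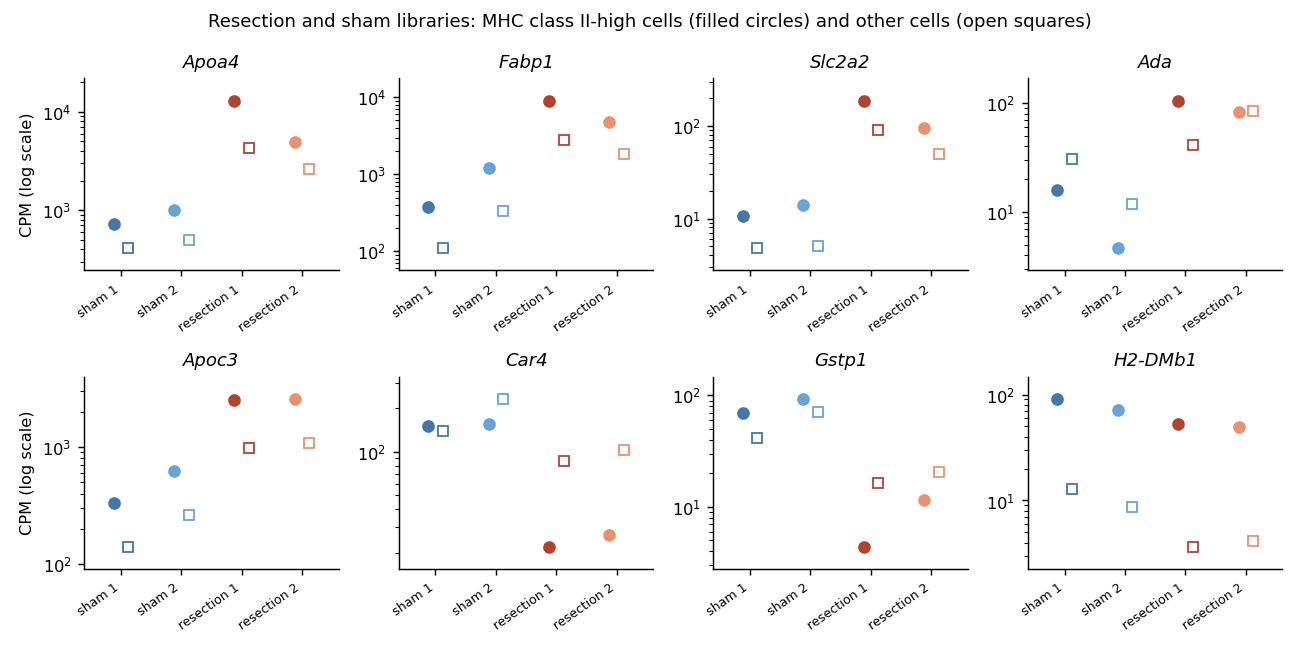
CPM on a log axis in the members (filled circles) and the other cells (open squares) of 4 libraries for 8 genes, each panel on its own scale. Apoa4, Fabp1, Slc2a2 and Ada are higher in both resection libraries in the members and in the other cells, Car4 and Gstp1 lie lower, and H2-DMb1 in members stays above H2-DMb1 in other cells in every library.

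No MHC class II gene outside the rule was called between the groups. H2-DMa in the members was at 58.8, 86.0, 43.9 and 68.5 CPM in sham 1, sham 2, resection 1 and resection 2 (-0.39, SE 0.549, edgeR adjusted p = 1), and the groups overlapped. H2-DMb1 was at 90.9, 72.0, 52.7 and 49.5 CPM (-0.65, SE 0.547, edgeR adjusted p = 1), with both resection values below both sham values. The rule genes are given as a description. In the members of the same 4 libraries H2-Ab1 stood at 855, 883, 786 and 761 CPM. H2-Eb1 stood at 449, 565, 378 and 536 CPM, and Cd74 at 1379, 2524, 1832 and 2237 CPM. The rule set a floor of 0.2% on the 4 genes in each member, so these levels cannot show whether resection changed them. In the other cells their log2 fold changes ran from -1.41 (H2-Aa) to -0.92 (H2-Ab1), given without a test. The other cells of sham 3, outside this fit, were lower still for each of the 4 genes. None of 7 tested machinery genes (median -0.22), 16 class I genes (-0.13) and 9 interferon gamma response genes (0.11) was called. The median over all genes tested was 0.03.

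Of 24 mid-villus genes 2 were higher, Fabp1 and Slc2a2, with a median of 0.04, and none of 12 proximal genes was called (median 0.37). The ileal genes Fabp6 and Slc51a, a basolateral bile acid transporter subunit, were at -1.20 and -1.12, and the defence genes Duox2 and Lypd8 at -2.14 and -1.31, none called (edgeR adjusted p between 0.729 and 1). For Fabp6 the members of resection 1 (4173 CPM) stood apart from those of resection 2 (17230), sham 1 (29225) and sham 2 (19953). The stem genes Slc12a2 and Clca3b were at 2.41 and 1.97, also not called (edgeR adjusted p = 0.330 and 0.523).

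In the other cells of the same 4 libraries 0 of 11688 genes (0%) were called, with 319 at an unadjusted p below 0.05. Apoa4, Fabp1, Slc2a2 and Ada were there at 2.91, 3.39, 3.83 and 1.57. The test of the difference between the resection effect in members and in other cells gave 0.29 (edgeR adjusted p = 0.998) for Apoa4, -0.36 (0.998) for Fabp1, -0.49 (1) for Slc2a2 and 1.68 (0.670) for Ada. None of the 4 was thus shown to respond differently in the members.

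Across all genes this interaction test called 3 of 9588 as more positive in members (0.0313%) and 6 as more negative (0.0626%). In edgeR 499 of the 9588 genes had an unadjusted p below 0.05. DESeq2 called none, with 140 genes at an unadjusted p below 0.05. Without sham 1 or without sham 2, edgeR called none. Of these 9, Phlda1, a growth factor-responsive gene, was the one also called against state-matched cells. It stood at 71.9, 41.3, 112 and 103 CPM in the members of sham 1, sham 2, resection 1 and resection 2, and at 162, 71.6, 38.8 and 96.7 CPM in other cells. In members both resection libraries were above both sham libraries, and in other cells the groups overlapped (interaction 1.65, SE 0.322, edgeR adjusted p = 0.00135; 1.51, edgeR adjusted p = 0.0279 against state-matched cells). Without sham 1, sham 2 or resection 1 it was not called (edgeR adjusted p = 1, 0.912 and 0.479).

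Prss30, a serine protease, was at 139, 269, 104 and 131 CPM in members and 64.0, 121, 107 and 138 CPM in other cells of the same libraries (-1.20, SE 0.244, edgeR adjusted p = 0.00278), and the kinase gene Sgk1 at 225, 185, 156 and 212 CPM against 74.4, 91.9, 192 and 135 CPM (-1.03, SE 0.228, edgeR adjusted p = 0.0107). In sham libraries both genes were higher in members than in other cells. Stmn1 (1.81, edgeR adjusted p = 0.00410) and Ptma (1.09, edgeR adjusted p = 0.0197), genes of dividing cells, were at 0.25 and -0.06 without cells of 3 or more stem markers (edgeR adjusted p = 1 for each). The remaining called genes were Upp1 (-0.96), Car4 (-1.70), Acta1 (-1.29) and the interferon-inducible Ifit1bl1 (-1.86), and each of these 4 was not called against state-matched cells.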

How the data were processed

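The values the authors deposited are unnormalized UMI counts (a gene-by-cell matrix for each library), made with Cell Ranger from 10x 3′ libraries per the labels, which give the Cell Ranger version with a question mark. The submitters' processing notes list the builds mm10 and GRCm38. The matrices hold 27998 genes. A symbol on several rows (56 symbols) was kept for the first. Members were chosen from the deposited counts as described, with no doublet removed in the main analysis, and 0.8% of cells for every 1000 cells marked as doublets in an alternative. Counts were summed per library and class, and tested with edgeR 4.0.16 (R 4.3.3; TMM, filterByExpr, quasi-likelihood test, Benjamini-Hochberg 0.05) over all genes. DESeq2 1.42.0 was an alternative. Libraries with fewer than 10 members (sham 3) were left out of the fits. The scripts were tested on simulated data. State-matched cells were the 5 nearest in 30 principal components of 2000 variable genes. Shares were compared with exact permutation tests, and depth with exact sign-flip tests.

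The members, gene lists and library sets were chosen with earlier results of these data known. Genes named against other cells were the 12 with the largest change in each direction (at least 20 CPM in the higher class, same direction in every library), all machinery genes and the 3 with the lowest p of each list. For resection they were the 5 with the largest change each way, the machinery and 2 of each list, and for the interaction the 5 with the lowest adjusted p. Genes called against state-matched cells, Fabp6 and the stem and interaction genes beyond these were named after their values were seen. The replicate numbers of the labels are not said to pair libraries: same-numbered libraries deviated together (correlation 0.489 for both numbers, which are equal by construction with 2 pairs). Symbols absent from the gene table were not used here.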

Additional observations from a re-analysis of the deposited data

Results flagged for a closer look

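These genes had a resection effect that differed between the members and the other cells of the same 4 libraries by edgeR's interaction test: Phlda1 (1.65 on the log2 scale), Prss30 (-1.20), Stmn1 (1.81), Sgk1 (-1.03) and Ptma (1.09). Of these, Phlda1 was also called against state-matched cells, and Stmn1 and Ptma were not called without cells of 3 or more stem markers. DESeq2 called none of these genes, so each call rests on the choice of test.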

How the results depend on the processing

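The resection-minus-sham share of members stayed negative under every alternative run. The order of libraries did not hold throughout: at a mitochondrial limit of 10%, sham 1 fell below both resection libraries. Leaving out sham 3 repeats the reported gene fits, which do not hold it. Of the other 20 alternatives against other cells, H2-DMb1 was called under 20 and H2-DMa under 19. The 264 members hold 1264839 UMIs in all, which limits low genes.

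Genes called higher and lower in members against other cells (579 and 649) were 65 and 300 at an MHC class II share of 0.4%, 333 and 374 at a mitochondrial limit of 10%, 231 and 330 without cells holding immune transcripts, 77 and 121 against depth-matched cells, 194 and 300 after thinning to 2000 UMIs, and 16 and 16 against state-matched cells. DESeq2 called 334 lower, and a share of 0.1% gave 411 lower. With no replicate block they were 2 and 27. With any 1 of the 4 fitted libraries removed, 325 to 547 genes were higher and 416 to 656 lower, against 579 and 649 without sham 3, which is the reported fit.

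Genes called between resection and sham in members (4 higher, 0 lower) were 10 and 2 with no filter on low counts and 1 and 3 at the 10% mitochondrial limit. Without immune transcripts 2 were lower, and with all 5 libraries 2 were lower. Higher calls were 1 at a share of 0.1%, and 0 at 0.4%, with at least 4 of 8 enterocyte markers and after thinning. With the replicate number as a block, which here equals the library set as a term, 5 were higher and 2 lower. Leaving out 1 library gave 0 to 7 higher and 0 to 3 lower.

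Interaction calls (3 more positive, 6 more negative) were 0 and 0 with DESeq2, at 0.4%, at 0.1%, at the 10% mitochondrial limit, without immune transcripts, against depth-matched cells and against cells with at most 1 MHC class II UMI. They were 1 and 0 after thinning and 5 and 2 with all 5 libraries. With at least 4 enterocyte markers 7 were more positive, without cells of 3 or more stem markers 1, and against state-matched cells 3 were more negative. Leaving out 1 library gave 0 to 6 and 0 to 7.

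List medians against other cells moved as follows. Against state-matched cells they were -0.0314 (machinery), 0.18 (class I), 0.12 (interferon gamma), 0.39 (type I and III interferon), 0.16 (mid-villus), 0.25 (villus tip), 0.16 (ileal) and 0.21 (proximal). Machinery was 0.29 after thinning. At 0.4% class I was 0.30, interferon gamma 0.0447 and villus tip 0.46, and at 0.1% class I was 0.39, villus tip 0.43 and proximal 0.64. Interferon gamma was 0.0875 with no filter, 0.39 at the 10% mitochondrial limit, 0.11 without immune transcripts and 0.0656 against depth-matched cells. Villus tip was 0.55 with no filter. Against depth-matched cells villus tip was 0.47, ileal 0.33 and proximal 0.55. Proximal was 1.003 at the 10% limit, 0.61 without immune transcripts and 0.46 after thinning. Leaving out 1 library gave 0.70 to 0.91 for proximal and 0.55 to 0.82 for villus tip.

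For resection, the machinery median was -0.33 with no filter, -0.0826 at 0.1%, -0.10 at the 10% limit, -0.10 without immune transcripts and 0.10 after thinning. At 0.4% class I was 0.11, interferon gamma 0.42, mid-villus 0.27 and proximal 0.86, and interferon gamma was 0.38 at the 10% limit. Proximal was 0.65 with no filter, 0.63 without doublets, 0.74 at 0.1%, 0.69 at the 10% limit, 0.61 with at least 4 enterocyte markers, 0.68 without immune transcripts and 0.73 without cells of 3 or more stem markers. Leaving out 1 library gave -0.30 to 0.15 for interferon gamma, -0.39 to -0.13 for class I, -0.22 to -0.11 for machinery and 0.37 to 1.17 for proximal.

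Directions turned in these cases. The log2 depth ratio was 9.73e-05 against depth-matched cells. The mitochondrial difference was -0.658 percentage points at 0.4%, -0.0424 with at least 4 enterocyte markers, -0.152 without immune transcripts, -0.624 against state-matched cells, and -0.141 to 0.246 leaving out 1 library. Igtp was at -0.63 at 0.4%. Against state-matched cells Lyz1 was at 0.0656, Itln1 at 0.0541, Defa21 at 0.12 and Ang4 at 0.36. For resection H2-DMb1 was at 0.067 at the 10% limit, and the interaction of Ptma was -0.059 without cells of 3 or more stem markers. The cause of these shifts was not tested.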
